A study of Mus musculus with 4 samples.

Results

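The genes described here encode 7 glycoproteins of the wound matrix (Tnc, Spp1, Thbs1, Thbs2, Sparc, Postn and Fn1) and 3 proteins of plasminogen activation (Plau, Plaur and Plat), which is 10 of the 16862 mouse genes usable on the arrays. They were picked by name, and Tnc and Spp1 partly because their responses to treatment were already known to differ between tail and back, so the difference between the skins is given as a description. All 19 probes of these genes were used, and the brightest probe stood for each gene. The 4 groups were treated back skin, untreated back skin, treated tail skin and untreated tail skin, with 1 array each. The treatment was photodynamic: a methyl aminolevulinate cream (Metvix) was left on the skin for 2.5 h in the dark, and red light of 636 nm then produced a short burst of reactive oxygen species. The back received 2.5 J/cm2 and the tail 10 J/cm2, back animals were shaved completely before the cream was applied, and RNA was taken 48 h later. The labels give no treatment for the controls and state neither strain, age, nor whether the controls were shaved, received cream or were lit. Each group is described as 3 animals, and with 1 array a group the labels do not say whether RNA was pooled. The tail RNA is named both as skin and as epidermis. Light dose, shaving, skin site and any difference in tissue layer therefore cannot be told apart when the back and the tail are compared. No difference below has a replicate check or a test.

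Matricellular proteins such as tenascin C, osteopontin and the thrombospondins are secreted into the matrix, where they act on cell adhesion and signalling more than as structural scaffold, and in skin they are best known from healing wounds. Fibronectin forms the provisional matrix over which cells move into a wound. Plasminogen activators cut plasminogen to plasmin, which dissolves fibrin and other matrix proteins, and the urokinase receptor holds that activity at the cell surface.

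RefSeq promoter windows (build GRCm38.p6, the 250 bases before an annotated start) were listed for 6 of the 10 genes, in 9 windows. The first window listed is printed for the 4 genes that were at least 2-fold higher in treated than in untreated back skin, because these genes moved together there. Capitals mark matches, on either strand, to the AP-1 site TGANTCA, the TATA box TATAAA or the GC box GGGCGG. The windows are chr4:64047016-64047265 on the minus strand for Tnc, chr5:104434861-104435110 on the plus strand for Spp1, chr17:14694263-14694512 on the minus strand for Thbs2 and chr7:24462233-24462482 on the plus strand for Plaur.
Tnc: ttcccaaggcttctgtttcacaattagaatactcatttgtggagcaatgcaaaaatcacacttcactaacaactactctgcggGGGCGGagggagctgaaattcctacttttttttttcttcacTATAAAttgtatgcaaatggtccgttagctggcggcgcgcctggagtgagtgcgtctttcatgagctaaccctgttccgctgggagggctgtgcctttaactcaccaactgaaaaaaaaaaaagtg
Spp1: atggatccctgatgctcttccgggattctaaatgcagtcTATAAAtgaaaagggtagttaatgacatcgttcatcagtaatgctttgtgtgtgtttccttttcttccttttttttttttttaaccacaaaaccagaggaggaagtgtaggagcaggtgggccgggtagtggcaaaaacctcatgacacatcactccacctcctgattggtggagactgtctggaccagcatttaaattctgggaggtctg
Thbs2: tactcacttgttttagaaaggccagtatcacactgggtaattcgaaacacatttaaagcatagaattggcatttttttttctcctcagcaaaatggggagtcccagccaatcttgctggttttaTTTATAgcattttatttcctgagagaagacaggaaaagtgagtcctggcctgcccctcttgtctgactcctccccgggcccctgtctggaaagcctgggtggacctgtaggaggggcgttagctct
Plaur: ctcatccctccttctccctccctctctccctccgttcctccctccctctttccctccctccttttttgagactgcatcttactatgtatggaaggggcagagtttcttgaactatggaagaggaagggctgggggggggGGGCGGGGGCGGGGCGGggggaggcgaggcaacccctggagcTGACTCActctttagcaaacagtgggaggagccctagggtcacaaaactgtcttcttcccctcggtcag
The Plaur window holds the only AP-1 match among the 6 genes, 69 bases before the start, and 3 GC boxes, of which the first 2 abut and the last 2 share a base. Tnc has TATAAA at 126 bases and a GC box at 167 bases before the start, Spp1 has TATAAA at 211 bases, and Thbs2 has it on the opposite strand at 126 bases. Over all 32851 promoter windows of the same length, 6.75% hold the AP-1 letters, 12.4% TATAAA and 32.7% the GC box. These matches describe letters in a window, and no binding was measured.

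The arrays differed in brightness before scaling. Processed signals had a 75th percentile of 1204 on the treated back array, 1860 on the untreated back array, 908.8 on the treated tail array and 7261 on the untreated tail array. Between 13354 and 14951 of the 16862 genes were well above background, and 330 to 1667 were saturated, with the highest number on the untreated tail array. Values below are scaled levels, that is, a probe's processed signal as a percentage of its own array's 75th percentile, and differences are log2 of the ratio of scaled levels. A gene counts as higher or lower once its difference reaches 2-fold. The scanner's spot error of a difference had a median of 0.20 in either skin, and it covers the spot only, not animals or labelling. Keratins of basal and suprabasal epidermis (Krt5, Krt14, Krt1 and Krt10) were saturated on all 4 arrays, so the tissue label was borne out and its epidermal share could not be compared. In whole tissue, fewer cells of a type and less RNA per cell cannot be told apart.

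**Figure D1:**
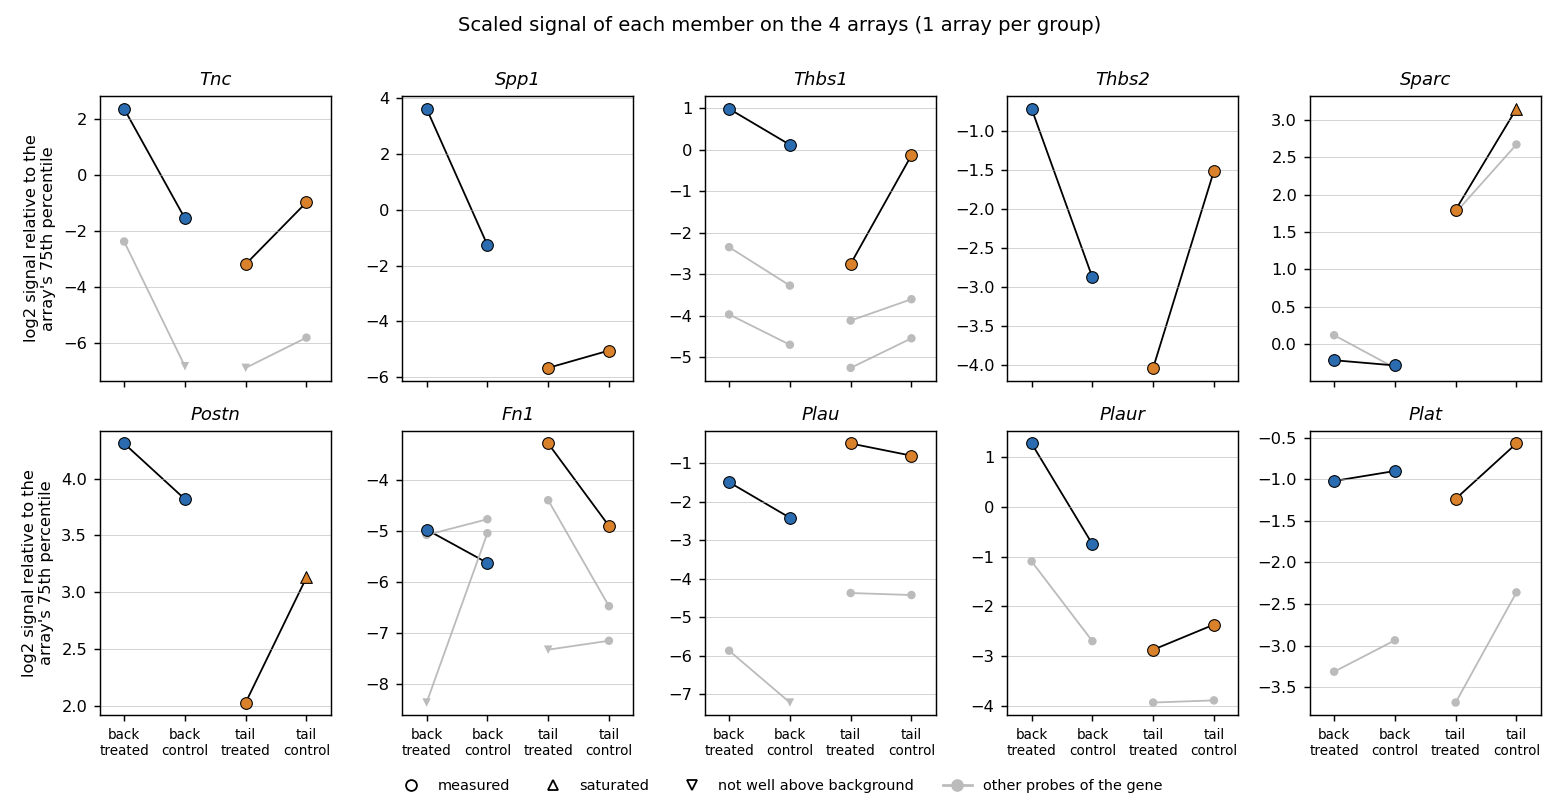
Log2 of the processed signal relative to the array's 75th percentile for each of the 10 genes on the 4 arrays, 1 array per group, with coloured marks for the representing probe, grey marks for other probes and a line joining treated and control of 1 skin. Axes differ between genes. Tnc, Spp1, Thbs2 and Plaur stand highest on the treated back array, and Sparc and Postn were saturated on the untreated tail array.

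In the back, the treated skin had much more Spp1 and Tnc transcript than the untreated skin, and more Thbs2 and Plaur. The other members differed by less than 2-fold. Of the 10 members, 4 were higher (13.6% of the 13460 genes with a value were) and 0 lower (12.6% of genes were). Leaving out Tnc and Spp1, 2 of 8 were higher. The median of the 10 was 0.90, against -0.011 over all genes. Members were chosen with these results known, so nothing is read from the counts.

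Spp1 encodes osteopontin, a secreted phosphoprotein that binds integrins and CD44 and is made by macrophages among other cells. Its scaled level was 1217% in treated back skin, against 41.6% in untreated back skin, a difference of 4.87 (spot error 0.20) or 29.3-fold. It was carried by 10 repeated spots per array, which ran from 14159 to 15126 in processed signal on the treated back array and from 725 to 808 on the untreated back array. The repeated spots of the 2 arrays lay far apart, and 14 of 13460 genes showed a larger increase.

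Tnc encodes tenascin C, a matrix protein nearly absent from most adult tissue and laid down at wound edges. It stood at 520.1% in treated back skin, against 34.4% in untreated back skin, a difference of 3.92 (spot error 0.20) or 15.1-fold. A further Tnc probe was not well above background in untreated back skin and was at least 4.16 higher on the log2 scale in treated back skin. Both probes thus gave a large increase, and 45 genes had a larger one than the brighter probe.

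Thbs2 encodes thrombospondin 2, a matricellular protein known as an inhibitor of angiogenesis. It reached 61.0% in treated back skin, against 13.6% in untreated back skin, a difference of 2.16 (spot error 0.21) or 4.47-fold. Thbs1, its close relative and an activator of latent TGF-beta, was at 198.1% in treated back skin, against 108.6% in untreated back skin, a difference of 0.87. All 3 Thbs1 probes lay between 0.73 and 0.93, just short of 2-fold.

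The structural and adhesive members of the group moved little in the back. Postn, encoding periostin, was at 1981% in treated and 1411% in untreated back skin, a difference of 0.49. Sparc, encoding a collagen-binding glycoprotein, was at 86.2% in treated and 82.1% in untreated back skin, a difference of 0.07. Fn1, encoding fibronectin, was near the low end of the measured range, at 3.17% in treated and 2.02% in untreated back skin, and its probes did not point the same way. The representing Fn1 probe, brightest on average over the 4 arrays but dimmest of the 3 in untreated back skin, gave 0.65. Another gave -0.31, and the third, not well above background in treated back skin, a value of -1.07 or lower.

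Among the genes of plasminogen activation, the receptor stood out from the activators. Plaur, encoding the urokinase receptor, was at 241.3% in treated back skin, against 59.4% in untreated back skin, a difference of 2.02 (spot error 0.20) or 4.06-fold, and its other probe gave 1.60. Plau, encoding urokinase itself, was at 35.5% in treated and 18.7% in untreated back skin, a difference of 0.92. Plat, encoding tissue plasminogen activator, was at 49.3% in treated and 53.5% in untreated back skin, a difference of -0.12. The activators stayed within 2-fold by their representing probes while the receptor did not. With the mean of all probes Plau was past 2-fold at 1.13, which made 5 members higher (1692 of 13401 genes were).

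**Figure D2:**
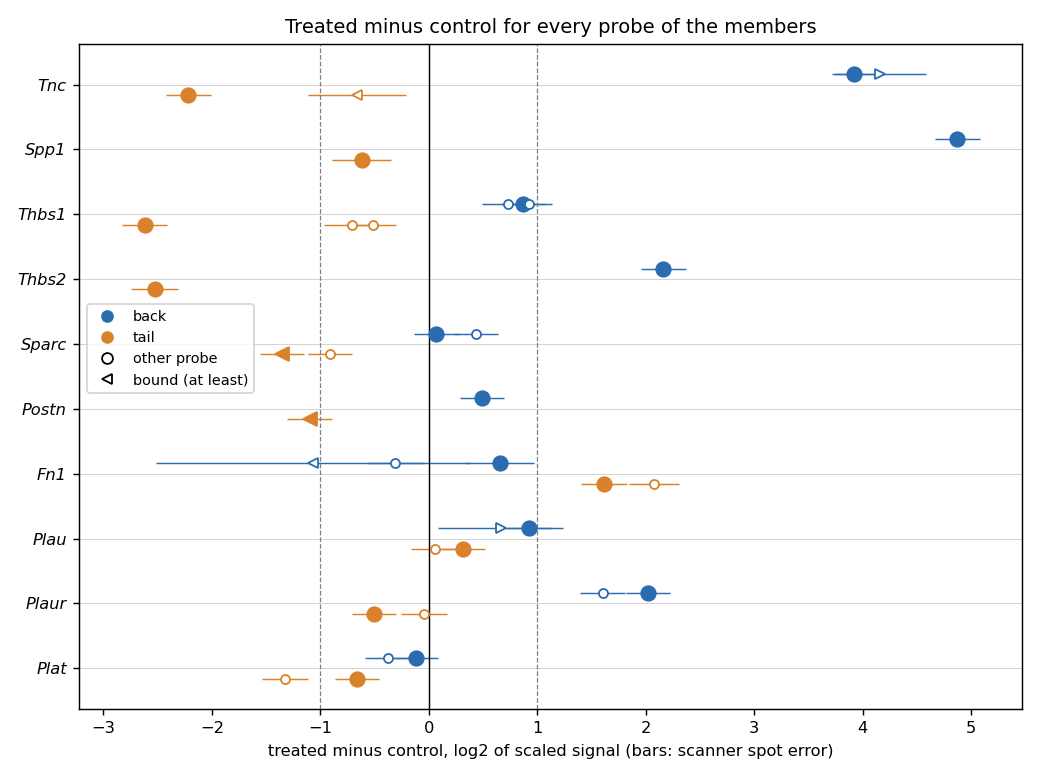
Treated minus control on the log2 scale for every probe of the 10 genes, back above tail within each gene, with filled marks for the representing probe, open marks for other probes, triangles for bounds and bars for the scanner's spot error. Dashed lines mark 2-fold. Tnc and Thbs2 lie beyond 2-fold on opposite sides in the back and the tail.

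In the tail, most of the glycoprotein transcripts were lower in treated than in untreated skin, and fibronectin was higher. Of the 10 members, 5 were lower (6.55% of the 12858 genes with a value were) and 1 was higher (27.2% of genes were). The median of the 10 was -0.88, against 0.33 over all genes. Of the 5 lower members, 2 (Sparc and Postn) are bounds. Every member's signal before scaling was lower on the treated tail array, so the directions rest on the scaling of these arrays of unequal brightness. Scaling on the spike-in controls gave 9 members lower and 0 higher, where 9817 of 14445 genes were lower and 167 higher.

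Thbs1 stood at 14.8% in treated tail skin, against 91.1% in untreated tail skin, a difference of -2.62 (spot error 0.21) or 6.15-fold lower. Its other 2 probes gave smaller decreases, of -0.71 and -0.52, so only the brightest probe passed 2-fold, and with normexp background correction it gave -0.79. Thbs2, with 1 probe, was at 6.10% in treated and 35.1% in untreated tail skin, a difference of -2.53 (spot error 0.22), which normexp turned to 0.60. Tnc was at 11.02% in treated and 51.2% in untreated tail skin, a difference of -2.22 (spot error 0.21) or 4.64-fold lower, which normexp turned to 0.055. The treated tail array holds 8 spots of bright local background, and normexp without them gave -2.23 for Thbs1, -1.70 for Thbs2 and -1.53 for Tnc. The dimmer Tnc probe was not well above background in treated tail skin and gave a bound of -0.66, short of 2-fold. Under 1% of genes with a value lay below any of these 3, namely 0.537% below Thbs1, 0.622% below Thbs2 and 0.902% below Tnc.

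The abundant matrix proteins were saturated in untreated tail skin, so only bounds can be given. Sparc was at 348.0% in treated tail skin and, saturated, at 888.6% in untreated tail skin, which makes it at least 2.55-fold lower. The second Sparc probe was measured on both arrays and differed by -0.91. Postn was at 408.4% in treated tail skin and, saturated, at 875.2% in untreated tail skin, which makes it at least 2.14-fold lower. The Sparc probes thus differ in size, and only the saturated one passed 2-fold, while Postn has no other probe.

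Fn1 went the other way: 10.2% in treated tail skin, against 3.33% in untreated tail skin, a difference of 1.62 (spot error 0.21) or 3.06-fold higher, while spike-in scaling gave -0.33. Its 10 repeated spots ran from 81.0 to 102 in processed signal on the treated tail array and from 218 to 260 on the untreated tail array, so the raw signal was lower and the scaled level higher. Another Fn1 probe gave 2.08.

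The representing probes of Spp1 and the plasminogen genes stayed within 2-fold in the tail, and Spp1 and Plaur turned direction with normexp. Spp1 was at 1.98% in treated and 3.04% in untreated tail skin, a difference of -0.62 (spot error 0.27), against 3.63 with normexp and 1.03 with normexp without the bright-background spots. On the treated tail array its spots had a median signal of 17.4, and the lowest signal well above background there was 10.3, so this transcript was close to the detection limit. Plaur was at 13.7% in treated and 19.4% in untreated tail skin (-0.50), its other probe gave -0.04, and normexp gave 1.43. With normexp without the bright-background spots Plaur stayed negative. Plau was at 71.4% in treated and 57.3% in untreated tail skin (0.32). Plat was at 42.5% in treated and 67.3% in untreated tail skin (-0.67), with its other probe past 2-fold at -1.32.

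**Figure D3:**
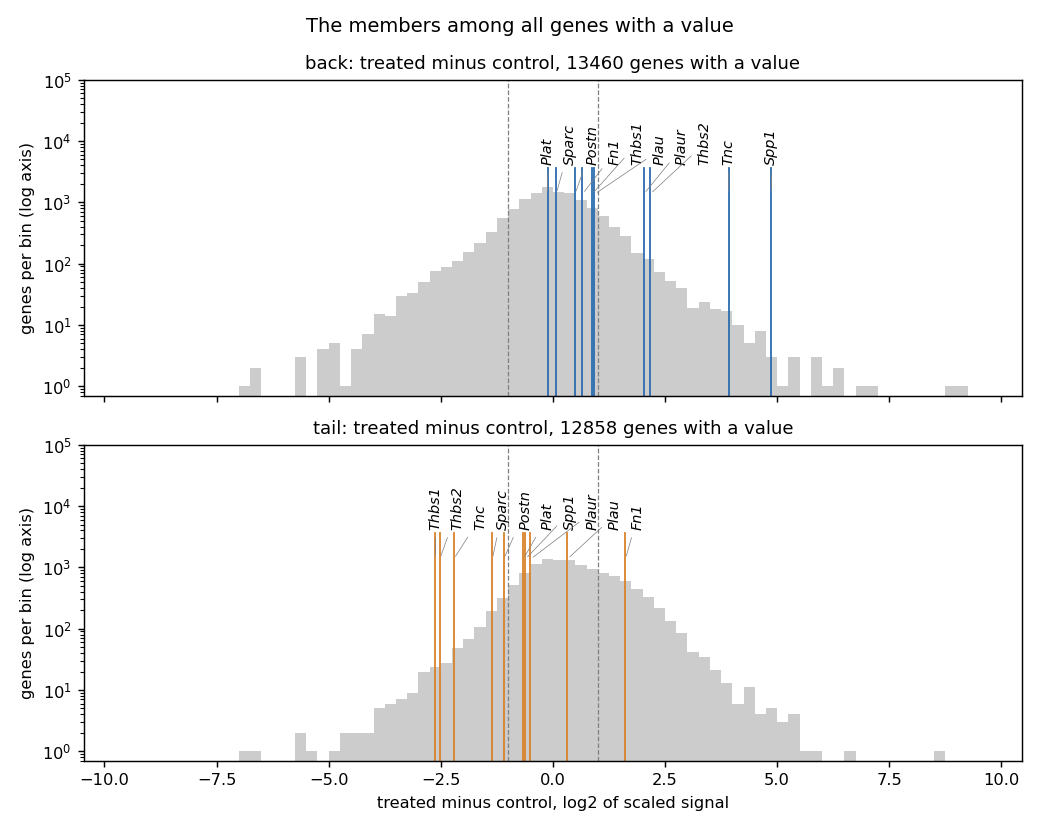
Histograms of treated minus control on the log2 scale over all genes with a value (counts on a log axis), back above tail, with a vertical line for each of the 10 genes and dashed lines at 2-fold. In the back Spp1 (4.87) and Tnc (3.92) lie in the right tail, and in the tail skin Thbs1, Thbs2 and Tnc lie in the left one.

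Set side by side by representing probes, the response was positive in the back and negative in the tail for 7 of the 10 members. It was positive in both for 2 (Fn1 and Plau) and negative in both for 1 (Plat). Sparc, among the 7, was 0.07 in the back, within its spot error of 0.20, and -0.36 with spike-in scaling. The other 2 Fn1 probes were negative in the back. The share of all genes with opposite directions was not counted, so nothing is read from the 7. Of those 7, 4 had a positive tail value with normexp (Tnc 0.055, Thbs2 0.60, Spp1 3.63 and Plaur 1.43). With normexp without the 8 bright-background spots of the treated tail array, only Spp1 stayed positive. The difference of the responses, back minus tail, could be formed for the 8 members measured on all arrays. It was 6.14 for Tnc (spot error 0.29), 5.49 for Spp1, 4.69 for Thbs2, 3.49 for Thbs1 and 2.53 for Plaur. These are the 5 members past 2-fold in the positive direction, where 15.5% of 11281 genes were (0 members and 28.6% of genes were past it in the negative direction), and the count is printed without a reading because the choice of Tnc and Spp1 used this contrast. With normexp the values were 3.72 for Tnc, 1.06 for Spp1, 1.21 for Thbs2, 1.62 for Thbs1 and 0.50 for Plaur. That left 4 members past 2-fold upwards (1208 of 11281 genes were) and 1 downwards (4535 were). Without the bright-background spots, normexp gave 5 upwards (1367 of 11279 genes were) and 1 downwards (3481 were). Under the 75th percentile scaling, 2 genes had a larger difference than Tnc. Plau, Plat and Fn1 differed by 0.61, 0.55 and -0.96, within 2-fold.

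The untreated skins already differed. Of 9 members with a value, 2 were higher in untreated back than in untreated tail skin (27.4% of 12793 genes were) and 3 lower (17.2% were). Spp1 was 13.7-fold higher in the back, at 41.6% in untreated back skin and 3.04% in untreated tail skin, and Plaur was 3.07-fold higher, at 59.4% in untreated back skin and 19.4% in untreated tail skin. The representing Sparc probe was at least 10.8-fold lower in untreated back skin and the other, measured on both arrays, 7.95-fold lower. Plau was 3.06-fold lower and Thbs2 2.58-fold lower. Fn1 probes disagreed, with the representing probe 1.65-fold lower and the others 3.26-fold and 4.31-fold higher in untreated back skin. Tnc differed by -0.57, within 2-fold, so its untreated levels were closer than its treated ones. In treated skin, back minus tail, 6 members were higher (15.9% of 14115 genes were) and 3 lower (20.5% were). The differences there were 9.26 for Spp1, 5.56 for Tnc, 4.14 for Plaur, 3.74 for Thbs1, 3.32 for Thbs2 and 2.28 for Postn, against -2.01 for Sparc, -1.69 for Fn1 and -1.01 for Plau. Plat differed by 0.21. With normexp Spp1 gave 4.53 and Thbs2 0.019, within 2-fold, which left 5 members higher (1660 of 14054 genes were). With normexp without the bright-background spots of the treated tail array, 6 members were higher (1726 of 14251 genes were) and 1 lower (2049 were).

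Genes with the most similar profile were sought among 11113 genes measured on all 4 arrays, by the Euclidean distance of the 4 log2 levels after centring each gene. For Tnc the nearest were Ltbp1 (distance 1.02), a binding protein of latent TGF-beta, then Bcar3 (1.33), Phldb2 (1.36) and Ccrl2 (1.37). For Spp1 they were Ccl4 (0.93), Ptpn22 (1.16), Itga7 (1.67) and Ccl3 (1.84). Ccl3 and Ccl4 are chemokines. For Plaur they were Rras2 (0.25), Tinagl1 (0.47), Vegfa (0.50) and St3gal6 (0.56). Distances over 4 arrays are a description, and many genes share such a pattern.

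Counts in the related lists stand against the shares over all genes. These were 13.6% higher and 12.6% lower in the back, and 27.2% higher and 6.55% lower in the tail. Of all tail calls 80.6% were higher, against 54.6% with cyclic loess and 1.67% with spike-in scaling. Inhibitors of the plasminogen system were described from a list of 5, of which 4 had a value in each skin. In the back 1 passed 2-fold upwards and 0 downwards (median 0.22). That gene was Serpinb6a, an intracellular serpin, at 1924% in treated and 758.3% in untreated back skin, a difference of 1.34. In the tail 1 was lower and 0 higher (median -0.20). Serpina5 was not well above background in treated tail skin and was at least 2.16-fold lower there. Serpinb2 had no value because it was saturated on 3 of the arrays.

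Of 8 genes for plasminogen and proteins that bind it, 6 had a value in each skin. In the back 2 were higher and 0 lower (median 0.32), namely Plg, encoding plasminogen, by 2.00 and Lrp1, a clearance receptor, by 1.05. In the tail 2 were higher and 1 lower (median 0.73). Plg was higher by 2.97, Hrg, encoding histidine-rich glycoprotein, was higher by 1.86, and Mrc2, encoding a collagen receptor, differed by -1.13. Plg was at 3.41% in treated and 0.43% in untreated tail skin, the second of these near the lowest signal well above background.

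Relatives of the members with a value mostly stayed within 2-fold in the back, as most genes did. Of 12 other tenascin, thrombospondin and SPARC family genes, 7 had a value there, 0 higher and 1 lower (median -0.06), the lower one being Thbs3 at -2.05. In the tail 4 were higher and 2 lower (median 1.32). Sparcl1 was higher by 1.71, Smoc1 by 1.33 and Comp by 1.32, and Thbs4 was at least 7.19-fold higher. Tnn, Tnr, Spock1 and Spock3 were not well above background on any array.

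The CCN genes encode further matricellular proteins. In the back 3 of 5 had a value and 0 passed 2-fold (median 0.69). In the tail 2 of 5 were higher and 1 lower (median 0.74). Cyr61, encoding CCN1, was at 17.7% in treated tail skin and, saturated, at 851.9% in untreated tail skin, at least 48.0-fold lower. Wisp2 was higher by 2.66 and Nov was at least 4.89-fold higher, both from levels near the detection limit.

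Other matrix glycoproteins (18 genes) gave 5 higher and 2 lower of 13 with a value in the back (median 0.79). Efemp2, a fibulin that aids elastic fibre assembly, was higher by 2.44 and Fbln2 by 2.08, and Fbn2, encoding a microfibril protein, differed by -3.07. In the tail 8 of 12 were higher (27.2% of all genes were) and 1 lower (6.55% were), with a median of 1.52. Fbln1 was higher by 2.14, Dpt by 1.79 and Fbln5 at least 8.12-fold, and Efemp1 differed by -2.34.

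Collagens and their crosslinking enzymes gave 2 higher and 2 lower of 8 with a value in the back (median -0.90). Plod2, a collagen lysyl hydroxylase, was higher by 2.16, while Col5a1 differed by -1.52 and Col1a1 by -1.29. In the tail 4 were higher and 3 lower (median 0.63). Col3a1 was higher by 1.78, while Col6a1 differed by -2.83 and P4ha1, a prolyl hydroxylase, by -2.12.

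Receptors of the member glycoproteins (18 genes) gave 7 higher and 0 lower of 17 with a value in the back (median 0.53). Itga3 was higher by 2.69, Ptprz1, a phosphatase receptor that binds tenascin C, by 2.55, and Itga5, the alpha chain of the fibronectin receptor, by 2.54. In the tail 3 were higher and 3 lower of 13 (median 0.08). Cd36, a thrombospondin receptor, was higher by 2.33, while Itgb1 differed by -2.32 and Itgav by -1.98. TGF-beta family ligands, activators and receptors gave 4 higher and 1 lower of 8 in the back (median 0.89). Inhba, encoding an activin subunit, was higher by 3.73 and Ltbp1 by 2.58, and Tgfb2 differed by -1.29. In the tail 2 were higher and 2 lower of 8 (median -0.62). Inhba was higher by 1.34 and Tgfb3 by 1.03, and Ltbp1 differed by -1.85.

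**Figure D4:**
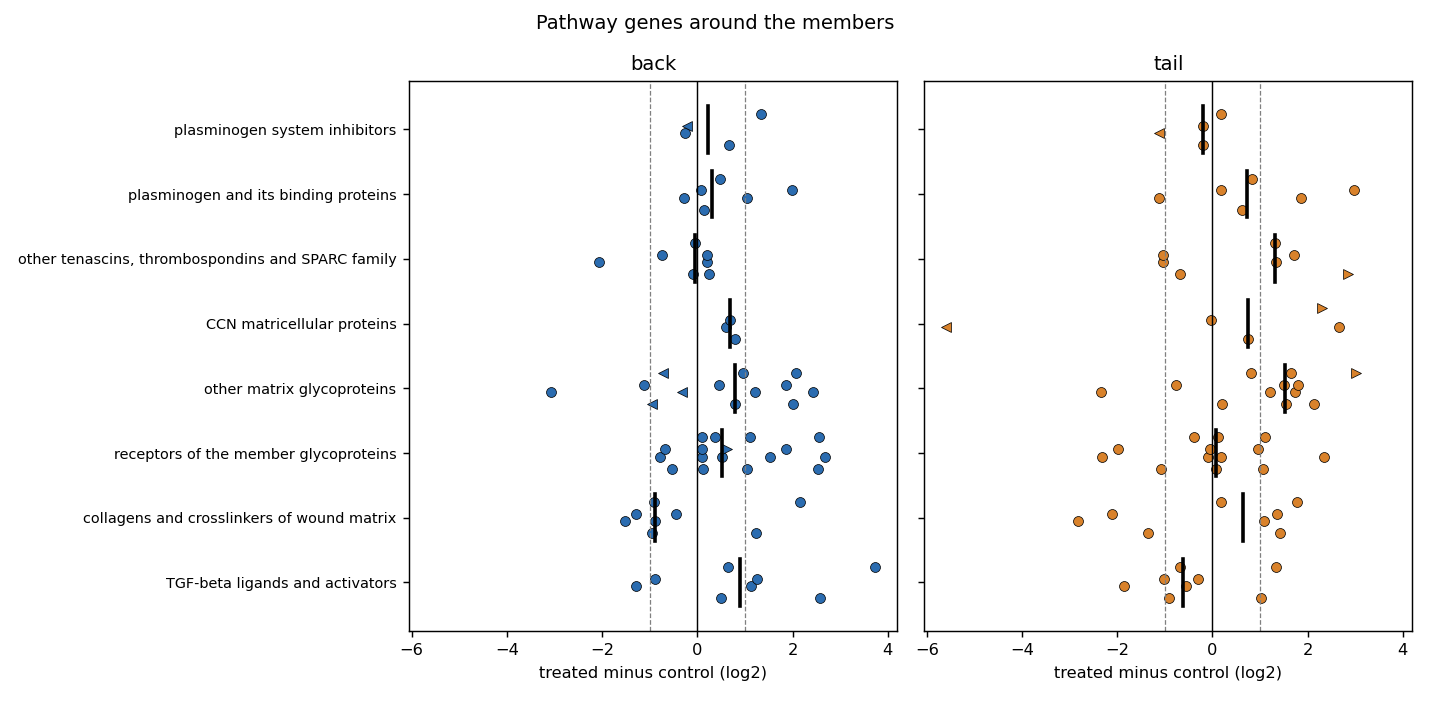
Treated minus control on the log2 scale for each gene with a value in the 8 related gene lists, back in the left panel and tail in the right. Each circle is 1 gene, triangles are bounds, dashed lines mark 2-fold and the thick vertical bar is the list's median. The other matrix glycoproteins have a median of 0.79 in the back and 1.52 in the tail.

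Markers of other cell types moved beside these results, and their part in them was not tested. Over all genes with a value, 13.6% were higher and 12.6% lower in the back, and 27.2% higher and 6.55% lower in the tail. The summed scaled level of 5 macrophage markers was 707.7% in treated and 250.03% in untreated back skin, with 3 of 5 genes higher, and 69.5% in treated and 32.8% in untreated tail skin, with 2 of 4 higher. Lyz2 was the largest part of the back sum, at 508.7% in treated and 112.9% in untreated back skin. Adgre1 was at 55.5% in treated and 44.7% in untreated back skin, and Csf1r at 57.0% and 87.5%. Macrophages are a known source of osteopontin. All 4 macrophage markers with a value were higher in untreated back than in untreated tail skin, where 27.4% of 12793 genes were. The neutrophil sum was 86.7% in treated and 12.6% in untreated back skin, with 2 of 4 markers higher, and 20.1% in treated and 10.6% in untreated tail skin, with 3 of 4 higher. Retnlg and Csf3r made up most of the treated back sum, at 53.5% and 25.8%. Cxcr2 was at 4.71% in treated and 8.13% in untreated back skin. The platelet sum was 788.6% in treated and 60.7% in untreated back skin, with 3 of 5 higher, and 134.9% in treated and 24.7% in untreated tail skin, with 4 of 5 higher. Pf4 and Ppbp made up most of the back sum, at 599.5% and 159.1% in treated back skin, while the receptor markers Itga2b, Gp9 and Gp1bb differed there by 0.37, 1.11 and -0.53. Platelet granules carry thrombospondin 1.

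Markers of mesenchyme and of deeper tissue moved in the tail as well. The fibroblast sum was 167.6% in treated and 188.5% in untreated back skin, with 3 of 5 markers higher and 1 lower, and 298.3% in treated and 145.7% in untreated tail skin, with 3 of 5 higher and 0 lower. Within the back sum Col1a1 was at 56.7% in treated and 138.3% in untreated skin, while Dcn was at 70.6% and 9.25%. Fibroblasts make Sparc, Postn and Fn1. The bone, cartilage and tendon sum was 308.9% in treated and 961.6% in untreated back skin (1 of 6 lower), and 920.5% in treated and 656.1% in untreated tail skin (3 of 6 higher), with Ibsp and Tnmd not well above background on any array. Bglap was the largest part of each of these sums, at 140.4% in treated and 844.6% in untreated back skin. Runx2 was at 122.5% in treated and 70.3% in untreated back skin. In treated against untreated tail skin 3 of 3 endothelial, 3 of 3 adipocyte and 4 of 5 skeletal muscle markers were higher. In the back these were 1 of 3, 1 of 4 and 2 of 4. Over all genes, 27.2% were higher in the tail and 13.6% in the back. The tail counts rest on the scaling, and with spike-in scaling 1.67% of all tail calls were higher. Some of these markers were near the low end in untreated tail skin, such as Cdh5 at 0.57% and Tnnt3 at 0.55%. Of 7 wound keratinocyte markers, 3 had a value in each skin and were higher. Krt6b and S100a8 were among them in both skins, with Krt6a in the back and S100a9 in the tail. Krt16 and Krt17 were saturated on all 4 arrays. Myofibroblast and smooth muscle markers were lower for 2 of 4 with a value in the back and higher for 2 of 2 in the tail. Schwann cell markers were higher for 1 of 4 in each skin. The basal keratinocyte marker Itga6, an integrin chain, differed by 1.69 in the back and -2.05 in the tail.

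**Figure D5:**
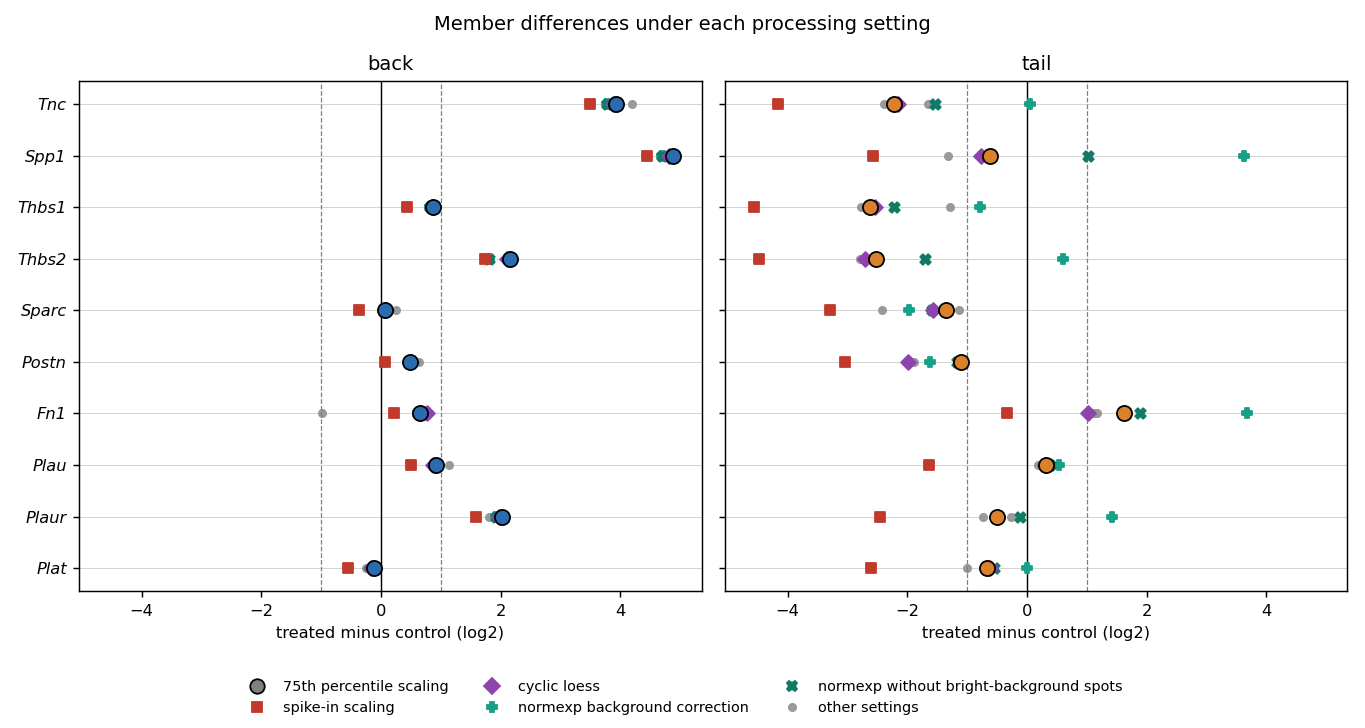
Treated minus control on the log2 scale for each of the 10 genes under 75th percentile scaling (large circles) and under each alternative (small marks), back in the left panel and tail in the right. In the back Tnc stays between 3.49 and 4.19, and in the tail it runs from -4.16 to 0.055.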

How the data were processed

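Cy3-labelled RNA (200 ng per sample, per the labels' protocols) was read on 4 one-colour Agilent arrays of a single slide, so the place of an array on the slide cannot be told apart from its group. Sample titles gave the groups. The deposited spot intensity had been corrected for background by Feature Extraction 10.5.1.1, per the file headers (10.7 per the submitters' processing notes). The authors' deposited value table is log2 and centred on each probe, with column medians of 0.084 in treated back, -0.031 in untreated back, 0.10 in treated tail and -0.28 in untreated tail skin. How it was made is not given in the sources used here. For 99.9% of probes its differences lay within 0.001 of those used here, which fixes its scale and direction.

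The log2 intensity was scaled to the 75th percentile of each array (control probes aside), without outlier spots and with repeated spots averaged. Of 41174 probes, 24375 (59.2%) matched 1 symbol by accession in a RefSeq table (GRCm38.p6). The file headers name mm8, so probe coordinates are not given. The brightest probe stood for a gene. A gene dim on 1 of 2 arrays was set there to the lowest signal well above background, or to its own signal where higher, and a gene saturated on 1 array kept its value; both gave bounds. Otherwise dim or saturated genes had no value. With single arrays there is no p-value, and the number of arrays limits the precision. The call rule was tested on simulated data, and 12 alternatives were tried, plus 1 added after seeing the data. All 10 members are named, and from each related list up to 3 called genes with the largest measured difference per skin, plus those called as bounds. The members and lists were chosen with earlier results of these data known. From the related lists, 1 gene is not reported here. Python 3.11.15 and R 4.3.3 with limma 3.58.1 were used.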

Additional observations from a re-analysis of the deposited data

Results flagged for a closer look

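Tnc and Thbs2 moved past 2-fold in opposite directions in the skins under the same contrast, treated minus control. Tnc was 3.92 in the back and -2.22 in the tail on the log2 scale. Thbs2 was 2.16 in the back and -2.53 in the tail. With 1 array per group the difference between the skins was not tested, and the light dose and the shaving differed with the site. The tissue layer may have differed too, as the tail RNA is named both as skin and as epidermis.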

How the results depend on the processing

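In the back, Tnc (3.49 to 4.19), Spp1 (4.44 to 4.88), Thbs2 (1.73 to 2.17) and Plaur (1.59 to 2.03) kept their direction and stayed past 2-fold under all 12 alternatives that give member values. Several of the 12 could not move these values. These genes were measured on both back arrays at signals over 200, so the settings on dim, saturated or weak signals left them unchanged. The authors' table holds the same back differences for 99.96% of probes, and Spp1 and Thbs2 have 1 probe each to average. The tail depends on the scaling. Spike-in scaling moved the median of all genes there by -1.84 (in the back by -0.41, and for untreated back minus untreated tail by -0.98), cyclic loess by -0.40, quantile normalization by -0.29 and normexp by 0.29. The share of higher calls in the tail was 80.6%, 91.5% with normexp, 59.0% with quantile normalization, 54.6% with cyclic loess and 1.67% with spike-in scaling; in the back it was 51.8%, and 22.1% with spike-in scaling. Members higher in the tail numbered 3 with normexp (5739 of 12979 genes were) and 0 with spike-in scaling (167 of 14445). Normexp without 8 bright-background spots, chosen after seeing the data, gave 2 (4464 of 12772). Leaving out signals under 200 kept 2 members, and 0 were higher (1232 of 7879 genes were). Members lower in the tail numbered 2 with normexp (534 of 12979 genes were) and 9 with spike-in scaling (9817 of 14445). They numbered 3 with measured values only (781 of 12486) and 3 with a 3-fold call (288 of 12858). Without signals under 200, 0 were lower (387 of 7879 genes were). Between the untreated skins, spike-in scaling gave 1 higher (1166 of 13638 genes were) and 6 lower (5938 were). With the mean of all probes 3 were higher (3368 of 12826 genes were), Fn1 at 1.03 in place of -0.73. Quantile normalization gave 4 lower (2910 of 13551 genes were). Between the treated skins, normexp without those spots gave 1 lower (2049 of 14251 genes were). A signal of at least 200 kept 4 members there, and 1 was higher (1192 of 8565 genes were). For the difference of responses, 1 member was lower with normexp (4535 of 11281 genes were) and with normexp without those spots (3481 of 11279). The mean of all probes also gave 1 lower (3119 of 11305 genes were). A signal of at least 200 kept 2 members for it, and 0 were higher (1058 of 7255 genes were). Tnc in the tail turned to 0.055 and Thbs2 to 0.60 with normexp, and Fn1 to -0.33 with spike-in scaling. The treated tail array has 8 spots with local background over 100, and without them normexp gave -1.53 for Tnc and -1.70 for Thbs2. With those spots in the fit, the 10th percentile of that array's normexp signal was 728.6, against 62.0 without them. The share of higher calls for untreated back minus untreated tail was 61.4%, against 46.9% with quantile normalization, 47.7% with cyclic loess and 16.4% with spike-in scaling. For treated back minus treated tail it was 43.7%, against 21.8% with normexp and 68.9% with spike-in scaling. For the difference of responses it was 35.2%, against 21.0% with normexp, 48.7% with quantile normalization, 51.1% with cyclic loess and 91.7% with spike-in scaling. Spp1 in the tail, under 2-fold, was 3.63 with normexp and 1.03 without those spots. No paired analysis was possible because each group has 1 array, and no replicate could be left out. Weak signal over background limits Spp1, Fn1 and the dim probes.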
